A study of Mus musculus with 24 samples.

Results

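The genes described here are the Hox genes, the homeobox genes of the Hoxa, Hoxb, Hoxc and Hoxd clusters, measured in fibroblasts of mouse embryos before and after oncogenic transformation. Members were taken by symbol, as every gene named Hoxa, Hoxb, Hoxc or Hoxd with a number in the platform annotation, and each was read from its brightest probe set with a single symbol. This gave 37 genes of the 19661 measured. Each of the 37 had 1 such probe set.

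Cultures came from 6 E13.5 embryos (mid-gestation, when limbs and axis are being patterned). The transformed cultures were fibroblasts transformed with Ras and Myc, 3 from Eif4e+/- embryos (here Het, with 1 intact allele of Eif4e, the gene of the mRNA cap-binding protein eIF4E) and 3 from wild-type embryos (WT). The untransformed cultures were early-passage primary fibroblasts of the same 3 Het and 3 WT embryos, and all cells were grown in 10% serum and harvested in exponential growth. Each of the 12 cultures gave total RNA and RNA from heavy polysomes, in which mRNAs carry many ribosomes, so that 24 arrays formed 8 groups of 3. Polysomal RNA came from cells treated with cycloheximide at 100 µg/ml. The labels do not say how Ras and Myc were introduced or whether a transformed culture was a clone or a pool. All Het titles carry the same biological replicate number, unlike the WT titles. Het embryos were therefore told apart by the number that follows the genotype in the title. Each embryo gave a single transformed culture, so the embryo and its one transformation cannot be told apart.

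Hox proteins are homeodomain transcription factors that give cells along the head-to-tail axis and along the limb their positional identity. In each cluster the genes lie in the order in which they are used along the axis, so that low-numbered (anterior) genes are used from the hindbrain on and high-numbered (posterior) genes towards the tail and the end of the limb. Cultured fibroblasts are known to keep much of the Hox pattern of the place they were taken from, held in part by Polycomb and Trithorax chromatin complexes, and Hox proteins bind DNA together with the TALE homeodomain partners Pbx and Meis.

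Values are log2 RMA intensities of Affymetrix Mouse Gene 1.0 ST arrays as the authors deposited them. Total RNA arrays had means of 7.47 to 7.50 and polysomal arrays of 3.78 to 3.79, so each fraction has a level of its own. A gene was taken as above background on an array where it exceeded the 95th percentile of 1190 probe sets for olfactory and vomeronasal receptors, genes that fibroblasts are not known to use. The limit lay between 6.57 and 6.89 for total RNA arrays, and for polysomal arrays between 3.21 and 3.57. Of the polysomal arrays, those of the transformed WT culture 3 and the untransformed WT culture 1 had the narrowest spread of values over probe sets. Eif4e itself lay between 8.84 and 9.21 in transformed Het cultures against 9.40 to 9.80 in transformed WT cultures, and between 8.69 and 8.88 in untransformed Het cultures against 9.03 to 9.21 in untransformed WT cultures, so the genotypes did not overlap in either state. Levels of different genes come from different probes and are not set against each other.

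Most genes of the Hoxa, Hoxb and Hoxc clusters, and 4 of 9 in the Hoxd cluster, were measured above background in the untransformed fibroblasts. In total RNA, 27 of the 37 genes exceeded the limit in all 6 untransformed cultures, 6 did so in none, and 4 in some. The share of all genes above the limit was not computed, so these counts do not set Hox genes apart from other genes. In the Hoxb cluster, 8 of 9 genes were above background in every untransformed culture, from Hoxb1 to Hoxb9, and Hoxb13, which is known from the tail end of the embryo, was in none. In the Hoxa cluster this held for 9 of 10 genes, with Hoxa3 the exception. In the Hoxc cluster Hoxc4 to Hoxc10 (6 of 6) were above background throughout, and Hoxc11, Hoxc12 and Hoxc13 were in none of the 12 total RNA arrays. In the Hoxd cluster 4 of 9 genes, Hoxd8, Hoxd9, Hoxd10 and Hoxd13, were above background in all 6 untransformed cultures, and Hoxd1 and Hoxd4 in none. By region, this held for 4 of 7 anterior genes (paralog groups 1 to 3), 13 of 14 central genes (4 to 8) and 10 of 16 posterior genes (9 to 13). Hoxa13 and Hoxd13, the genes of the hand and foot plate, stayed close to the limit, with 6.84 to 7.33 for Hoxa13 and 7.01 to 7.35 for Hoxd13. With the 99th percentile as the limit, 8 genes were above background on all 12 total RNA arrays, against 18 with the 95th. The untransformed cultures were not counted by themselves at that limit.

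**Figure D1:**
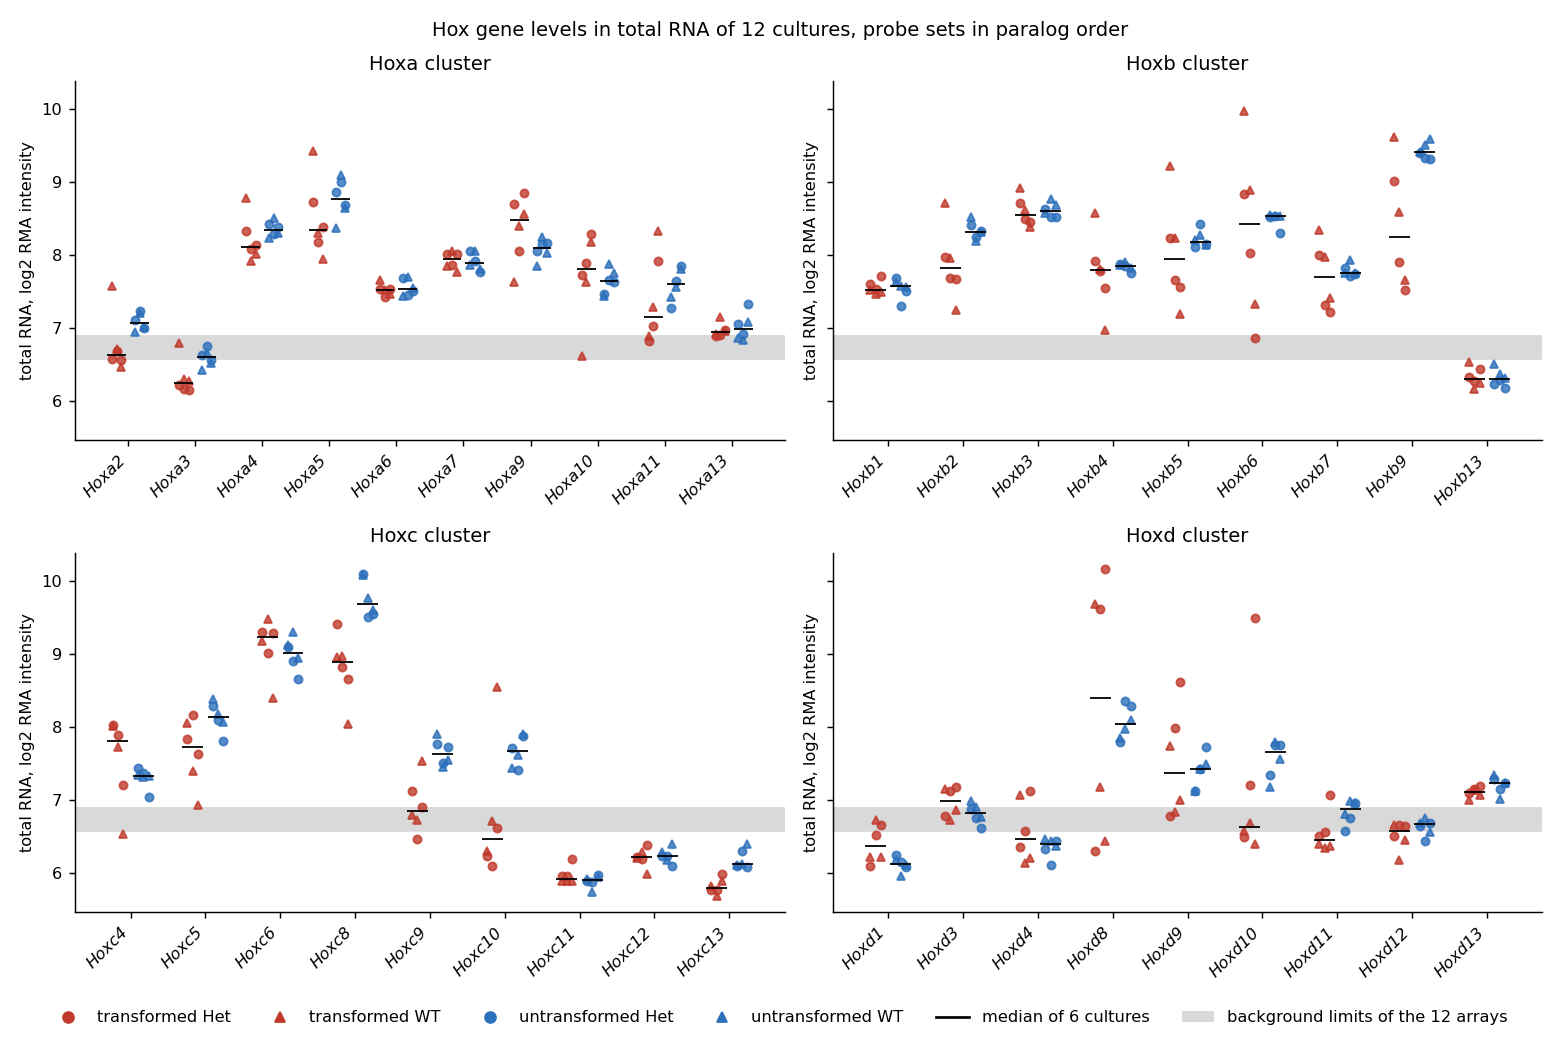
Log2 RMA intensity in total RNA (vertical axis) for the 37 Hox genes in paralog order, 1 panel for each cluster, with transformed cultures in red at the left of each gene and untransformed cultures in blue at the right, circles for Het and triangles for WT. Black bars are medians of 6 cultures and the grey band spans the background limits of the 12 arrays. The blue points lie close together while the red points of Hoxb5, Hoxb6, Hoxb9, Hoxc10, Hoxd8 and Hoxd10 are spread over 2 log2 units or more.

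After transformation 18 of the 37 genes were above background in all 6 cultures, against 27 before it, and between 22 and 28 genes per culture, against 28 to 30 in untransformed cultures. The 9 genes that left the list were Hoxa2, Hoxa10, Hoxb6, Hoxc4, Hoxc9, Hoxc10, Hoxd8, Hoxd9 and Hoxd10. Each of these was still above background in at least 2 transformed cultures, and the cultures differed in which genes they had kept. The limit itself was 6.63 to 6.89 on transformed and 6.57 to 6.70 on untransformed total RNA arrays. Hoxb6 missed it only in Het culture 3 (6.87 against 6.89) and Hoxd9 only in Het culture 1 (6.78 against 6.82). Both values exceeded every untransformed limit, so part of the drop in count goes with the higher limits. The share of all genes that left background was not computed.

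The transformed cultures differed from each other in Hox levels far more than the untransformed cultures did. Over the 34 Hox genes that passed the filter on low values (3 or more of the 24 arrays with a value over that array's own 40th percentile; Hoxc11, Hoxc12 and Hoxc13 failed it), the median SD over 6 cultures was 0.44 log2 units in transformed and 0.13 in untransformed cells. The median over all 14830 genes kept was 0.14 in transformed and 0.10 in untransformed cells. The ratio of the SDs had a median of 2.77 for Hox genes and 1.42 for all genes, and it exceeded 2 in 22 of 34 Hox genes (64.7%) and in 28.3% of all genes. Within genotypes the picture was alike, with a median Hox SD of 0.44 in transformed and 0.13 in untransformed cells. The ratio was below 1 in 5 Hox genes, Hoxa6, Hoxa7, Hoxa13, Hoxb1 and Hoxd13. These are descriptions with no test. Leaving out 1 embryo at a time gave Hox medians between 2.13 and 3.00.

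**Figure D2:**
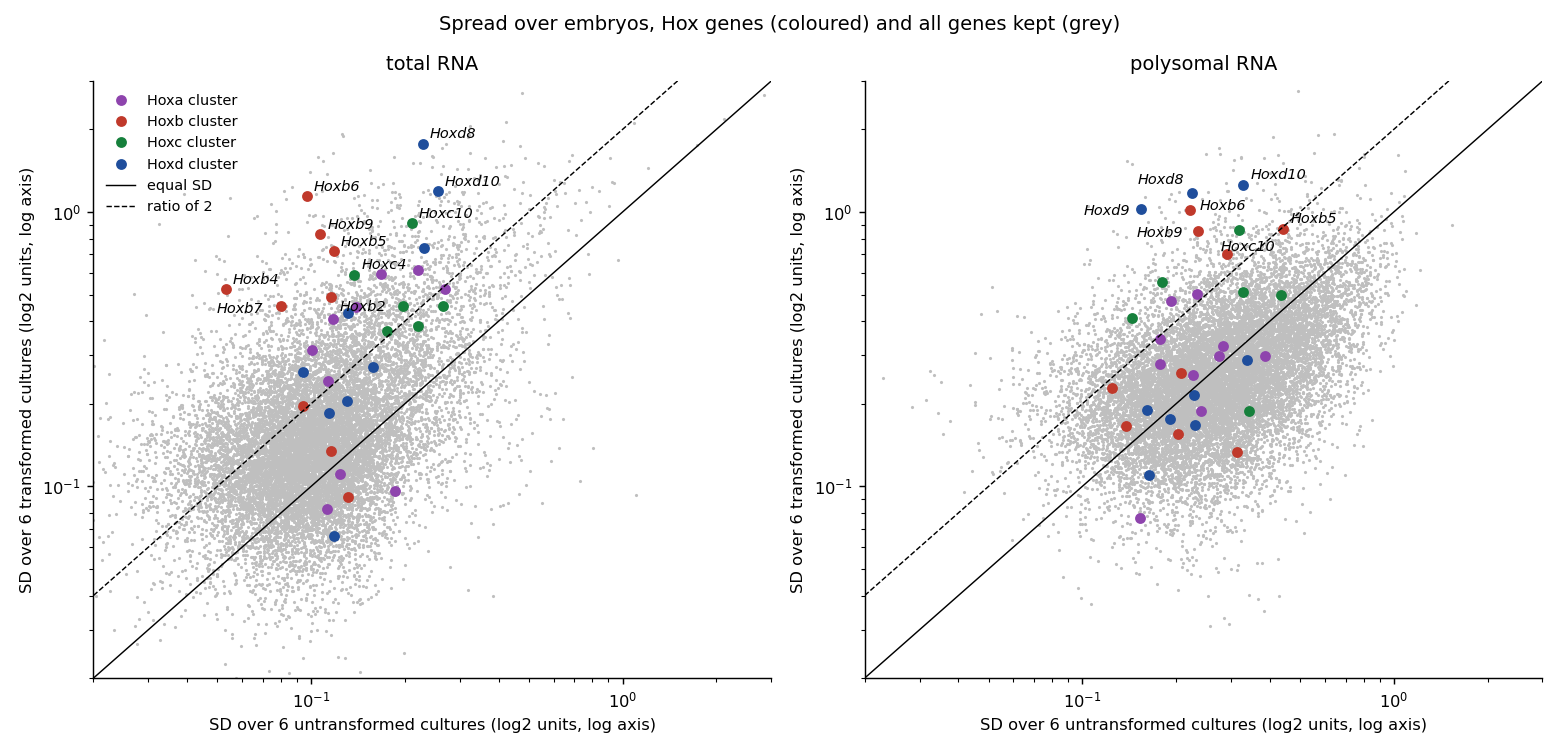
SD over the 6 transformed cultures (vertical, log axis) against SD over the 6 untransformed cultures (horizontal, log axis), in log2 units, for Hox genes (coloured by cluster) and all genes kept (grey), in total RNA at the left and polysomal RNA at the right. In total RNA 22 of 34 Hox genes lie above the dashed line of a ratio of 2, with Hoxb6, Hoxb4 and Hoxd8 farthest from it, and in polysomal RNA 11 do.

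In the Hoxb cluster the transformed cultures kept a similar order in most genes, with WT culture 1 highest in 8 of 9 and WT culture 3 or Het culture 3 lowest in 7 of 9. Genes outside the rule for named genes (Hoxb2 to Hoxb6, Hoxa2, Hoxa4, Hoxa10 and Hoxa11) were chosen for description after their values were seen. Hoxb6, a central gene active in trunk and limb mesenchyme, had 8.84, 8.02 and 6.87 in transformed Het cultures 1, 2 and 3 and 9.97, 8.89 and 7.33 in transformed WT cultures 1, 2 and 3, against 8.30 to 8.53 in untransformed Het and 8.53 to 8.55 in untransformed WT cultures. The transformed values lay on both sides of the untransformed ones, which spanned 0.25 log2 units against 3.10 after transformation. The SD ratio of 11.8 was the largest of the Hox genes tested. A ratio as large was reached by 0.236% of all genes kept, a share given for a gene picked as the extreme.

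Hoxb9, the most posterior gene of the main Hoxb group and one that helps to pattern the rib cage, had 9.01, 7.91 and 7.52 in transformed Het cultures and 9.61, 8.59 and 7.66 in transformed WT cultures, against 9.31 to 9.40 in untransformed Het and 9.41 to 9.59 in untransformed WT cultures. Here 5 of 6 transformed cultures lay below all untransformed ones, and WT culture 1 lay above them. Hoxb4, which is also known from blood stem cells, ranged from 6.97 to 8.58 in transformed cultures against 7.76 to 7.91 in untransformed ones, and Hoxb5 from 7.19 to 9.22 against 8.11 to 8.43. Hoxb7 followed with 7.22 to 8.34 in transformed and 7.71 to 7.93 in untransformed cultures. In Hoxb1, the exception, Het culture 3 was the highest transformed culture. Averaged over the 9 genes, the cluster stood at 8.07, 7.63 and 7.45 in transformed Het and 8.60, 7.97 and 7.33 in transformed WT cultures, against 7.98 to 8.12 in untransformed cultures.

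The Hoxd cluster varied as widely, but other cultures were high. Hoxd8, which lies in the middle of the cluster, had 6.30, 9.62 and 10.16 in transformed Het cultures and 9.68, 7.17 and 6.44 in transformed WT cultures, against 7.80 to 8.35 in untransformed Het and 7.84 to 8.09 in untransformed WT cultures. Of the transformed cultures, 3 thus lay above every untransformed one (Het 2, Het 3 and WT 1) and the other three below, and Het culture 1 and WT culture 3 were under the background limit. Hoxd9, which acts in the lumbar region and the limb, kept nearly the same order, with 6.78, 7.98 and 8.62 in transformed Het and 7.73, 6.84 and 7.0 in transformed WT cultures, against 7.12 to 7.72 in untransformed cultures. Hoxd10, known from the hind limb and its motor neurons, was high in 1 culture alone, at 6.50, 7.21 and 9.50 in transformed Het and 6.57, 6.68 and 6.40 in transformed WT cultures, against 7.17 to 7.80 in untransformed cultures. Only Het cultures 2 and 3 were above background for Hoxd10 after transformation, whereas all untransformed cultures were. Het culture 3 was the highest transformed culture in 7 of the 9 Hoxd genes. Its array also had the highest background limit (6.89) and the narrowest spread of values (SD 1.71) of the total RNA arrays. It was highest as well for Hoxc11, Hoxc12 and Hoxc13, which were never above background. Of the Hoxd genes, Hoxd3, Hoxd4, Hoxd11 and Hoxd13 lay near the limit there, at 7.18, 7.13, 7.07 and 7.19. The part of the array itself in such ranks was not tested.

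The promoters of Hoxd8, Hoxd9 and Hoxd10 are shown because these neighbours on mouse chromosome 2 carried the widest spread of the Hoxd cluster. The sequences are RefSeq windows on GRCm38.p6, all on the + strand and written 5′ to 3′. Each runs from 250 bases before to 50 bases after a start position. They lie at chr2:74704365-74704664 (Hoxd8), chr2:74697513-74697812 (Hoxd9) and chr2:74691641-74691940 (Hoxd10). The Hoxd8 and Hoxd9 windows surround the gene start, whereas the Hoxd10 window lies inside the annotated gene, which begins at 74684273. Capitals mark a match to any of the motifs CACGTG (the E-box bound by Myc and its partner Max), TGANTCA (AP-1), TGATNNAT (Hox with Pbx) and TGACAG (Meis), searched on both strands.
Hoxd8: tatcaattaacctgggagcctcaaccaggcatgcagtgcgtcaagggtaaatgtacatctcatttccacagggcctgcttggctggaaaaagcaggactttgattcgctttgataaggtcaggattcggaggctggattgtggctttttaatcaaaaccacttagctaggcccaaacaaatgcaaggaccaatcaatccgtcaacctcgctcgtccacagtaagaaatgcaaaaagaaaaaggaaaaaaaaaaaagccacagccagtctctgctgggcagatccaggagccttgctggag
Hoxd9: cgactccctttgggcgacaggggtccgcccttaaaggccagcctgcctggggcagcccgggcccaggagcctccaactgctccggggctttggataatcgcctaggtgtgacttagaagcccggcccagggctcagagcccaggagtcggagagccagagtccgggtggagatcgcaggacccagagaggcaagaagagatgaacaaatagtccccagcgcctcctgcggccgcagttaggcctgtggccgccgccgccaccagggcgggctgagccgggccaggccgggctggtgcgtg
Hoxd10: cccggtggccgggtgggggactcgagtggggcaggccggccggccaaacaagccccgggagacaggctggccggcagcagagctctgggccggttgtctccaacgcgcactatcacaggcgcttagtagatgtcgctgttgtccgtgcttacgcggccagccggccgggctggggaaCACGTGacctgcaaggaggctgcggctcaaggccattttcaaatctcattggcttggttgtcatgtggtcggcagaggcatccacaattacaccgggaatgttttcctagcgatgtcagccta
The only match in the 3 windows was an E-box in Hoxd10, and the windows held 6 CpG dinucleotides in Hoxd8, 20 in Hoxd9 and 22 in Hoxd10. Windows were given for 22 Hox genes, 24 in all. In the Hoxb cluster only Hoxb1, Hoxb4 and Hoxb8 had a window, and in the Hoxc cluster only Hoxc4. Most genes of these clusters were therefore not searched, and the motif counts do not compare the clusters. An E-box was found in 5 of the 24 (20.8%), each in the Hoxd cluster (Hoxd1, Hoxd4, Hoxd10, Hoxd11 and Hoxd13), against 7.15% of all 32851 promoter windows. AP-1 letters were found in 1 Hox window (4.17%, against 7.81% of all), Hox-Pbx letters in 4 (16.7%, against 8.85%) and Meis letters in 2 (8.33%, against 19.2%). Hox windows had a median of 14.5 CpG dinucleotides against 7 over all windows, and a match is a description of these letters only.

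The average of the Hoxc cluster was lower after transformation, but its genes did not all go the same way. Averaged over 6 genes it stood at 7.72 to 7.99 in transformed Het and 7.66 to 7.88 in transformed WT cultures, against 8.11 to 8.40 in untransformed Het and 8.23 to 8.38 in untransformed WT cultures, with no overlap between the states. Hoxc5, Hoxc8, Hoxc9 and Hoxc10 had lower means in transformed cultures, whereas Hoxc4 and Hoxc6 were higher in 5 of 6 embryos each. Hoxc6 averaged 9.11 ± 0.38 in transformed and 9.0 ± 0.22 in untransformed cultures (SD, n = 6 each), and neither difference passed the test (Hoxc4 0.26 ± 0.18, limma adjusted p 0.337; Hoxc6 0.11 ± 0.12, limma adjusted p 0.536). Hoxc10, a gene of the lumbar region and hind limb, had 6.23, 6.10 and 6.62 in transformed Het and 6.30, 6.71 and 8.55 in transformed WT cultures, against 7.42 to 7.88 in untransformed Het and 7.44 to 7.91 in untransformed WT cultures. WT culture 3 was above all untransformed cultures and the other five below them. Hoxc4 was lowest in that culture, at 6.53 in transformed WT culture 3 and 7.20 to 8.02 in the other five, against 7.04 to 7.43 in untransformed cultures. WT culture 3 had the lowest transformed level in 5 of the 9 Hoxc genes and in 4 of the 9 Hoxb genes, and the highest in Hoxc9 and Hoxc10. The 5 Hoxc genes were Hoxc4, Hoxc5, Hoxc6, Hoxc8 and Hoxc12, of which Hoxc12 was never above background.

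The Hoxa cluster average hardly moved, at 7.43 to 7.68 in transformed and 7.49 to 7.78 in untransformed cultures, but its genes did not keep together. Hoxa5, which is needed for the lung and neck vertebrae, had 8.72, 8.18 and 8.38 in transformed Het and 9.43, 8.30 and 7.95 in transformed WT cultures, against 8.36 to 9.10 in untransformed cultures, so that WT culture 1 was highest as in the Hoxb cluster. Hoxa2 and Hoxa4 also peaked in WT culture 1, at 7.57 and 8.78. Hoxa10 had its lowest value there, 6.62 against 7.63 to 8.29 in the other transformed cultures. Hoxa11, a gene of the forearm and lower leg, had 6.83, 7.03 and 7.92 in transformed Het and 6.89, 7.29 and 8.34 in transformed WT cultures, against 7.27 to 7.84 in untransformed cultures. Embryo 3 of each genotype was the highest of its genotype for Hoxa11 in both states.

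**Figure D3:**
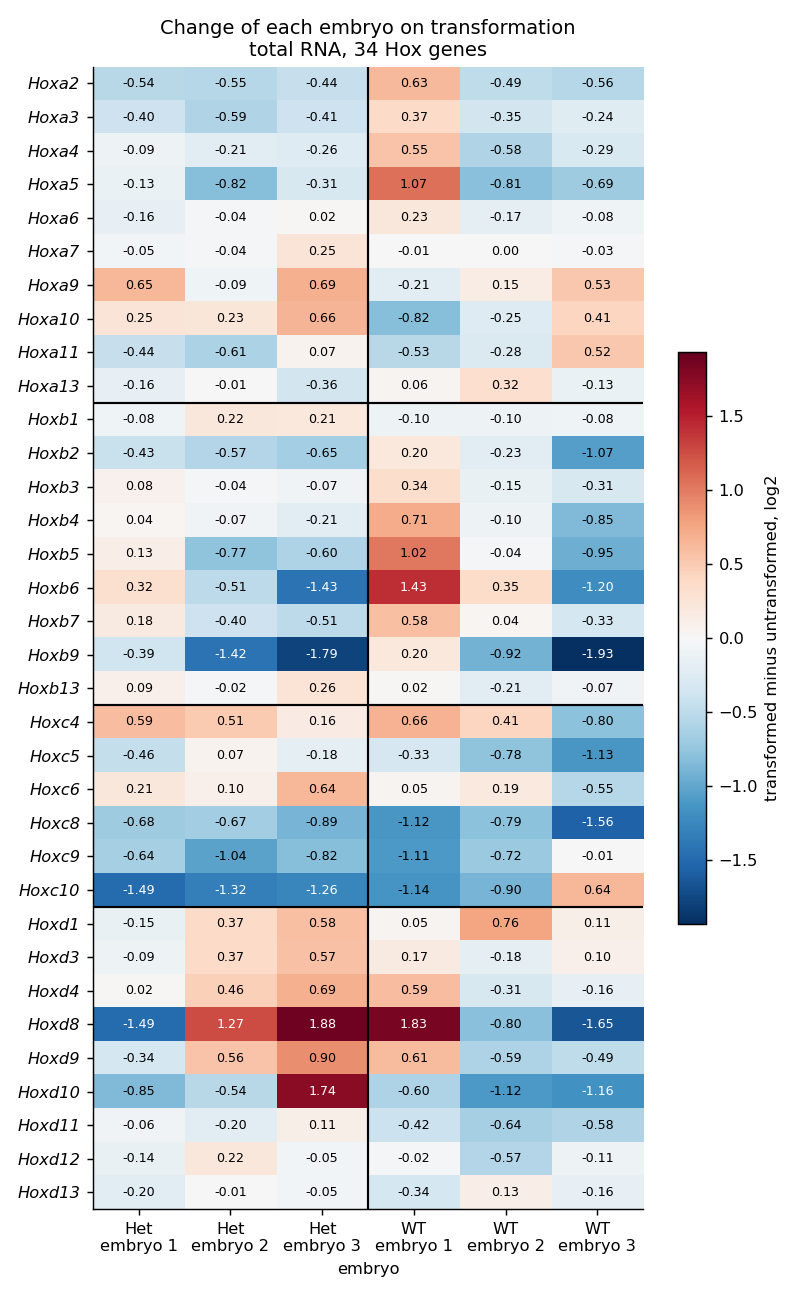
Transformed minus untransformed log2 value of the same embryo in total RNA (colour and printed number) for 34 Hox genes (rows, in cluster order) and 6 embryos (columns, Het left of WT). WT embryo 1 is red through Hoxa2 to Hoxa5 and Hoxb2 to Hoxb7, Het embryo 3 is red through Hoxd1 to Hoxd10, and Hoxc8 is blue in every column.

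Neighbouring genes of a cluster varied together. Over the 6 transformed cultures, 30 pairs of neighbours had a median Pearson correlation of 0.83, and 27 of the 30 were positive. The other 102 pairs within a cluster had a median of 0.41 and the 429 pairs across clusters a median of 0.06. Over the 6 untransformed cultures the medians were 0.53, 0.16 and 0.01. All pairs share the same 6 arrays, so these values describe the cultures and carry no test.

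Against this spread, few Hox genes had a mean change on transformation in total RNA. With embryo as a block, limma called 6 of 34 Hox genes at an adjusted p under 0.05, all lower, where 30.8% of all genes were called (15.8% lower and 15% higher). The Hox share of 17.6% was below that background, and the median Hox difference was -0.09 log2 against 0.03 over all genes. The 6 genes were Hoxc5, Hoxc8, Hoxc9 and Hoxc10, which were 4 of the 6 Hoxc genes tested, with Hoxb9 and Hoxd11. In bulk RNA, fewer cells that use a gene and less of its RNA per cell cannot be told apart.

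Hoxc8, which sets rib and vertebra identity in the thorax and limb-level motor neuron types, fell the most clearly. It had 9.41, 8.83 and 8.66 in transformed Het and 8.96, 8.97 and 8.04 in transformed WT cultures, against 10.09, 9.50 and 9.55 in untransformed Het and 10.08, 9.76 and 9.60 in untransformed WT cultures. All transformed values lay below all untransformed ones and all 6 embryos fell. The difference was -0.95 ± 0.10 (SE, 6 embryos), or 1.94-fold lower, with a limma adjusted p of 0.00105. The exact sign-flip permutation over embryos gave 0.03125, the smallest value it can give.

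Hoxc9, a thoracic gene that represses the limb program of motor neurons, had 7.12, 6.47 and 6.91 in transformed Het and 6.79, 6.73 and 7.54 in transformed WT cultures, against 7.51 to 7.77 in untransformed Het and 7.45 to 7.90 in untransformed WT cultures. It was lower in 6 of 6 embryos, by -0.01 in WT embryo 3 and by 0.64 to 1.11 log2 in size in the others, and the mean of -0.72 ± 0.14 had a limma adjusted p of 0.00855. Hoxd11, which with Hoxa11 builds the forearm, differed by -0.30 ± 0.06 (limma adjusted p 0.0116), lower in 5 of 6 embryos. It sat at the background limit, above it in 1 of 6 transformed and 5 of 6 untransformed cultures, and below it in all 3 transformed WT cultures, which puts transformed WT at least 1.15-fold lower than untransformed WT. The other three were called on wider spreads. Hoxc10 differed by -0.91 ± 0.22 (limma adjusted p 0.0209), with Hoxc10 in transformed Het cultures at least 1.85-fold lower than in untransformed Het cultures because all 3 lay under the limit. Hoxc5 differed by -0.47 ± 0.11 (limma adjusted p 0.0222) and Hoxb9 by -1.04 ± 0.29 (limma adjusted p 0.0339), each lower in 5 of 6 embryos.

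Hoxc8, Hoxc9 and Hoxd11 were called whichever single embryo was left out, and the rest of the list depended on the embryos. Without WT embryo 1 the count was 10, with Hoxa2, Hoxa3, Hoxa4, Hoxa5 and Hoxb2 added, and without WT embryo 2 it was 3. Without WT embryo 3 it was 8, and without Het embryos 1, 2 and 3 it was 4, 5 and 4. Hoxb9 lost its call in 4 of the 6 fits with an embryo left out, where limma adjusted p-values ran from 0.0156 to 0.114; the call stayed only when WT embryo 1 or Het embryo 1 was the one removed. Hoxc10 was called only with all embryos or without WT embryo 3, and Hoxc5 lost its call in 3 of the 6 (limma adjusted p 0.0134 to 0.0775). Hoxd10, uncalled with all embryos, differed by -0.83 (limma adjusted p 0.00767) without Het embryo 3. Hoxc4 differed by 0.48 (0.00857) without WT embryo 3.

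No Hox gene was called higher. The smallest p-values among positive differences belonged to Hoxd1 (0.28 ± 0.13, limma adjusted p 0.139, higher in 5 of 6 embryos), which exceeded background in 1 transformed culture, and Hoxa9 (0.28 ± 0.13, adjusted p 0.156, higher in 4 of 6). Hoxa9, known as a driver of acute leukaemia, had 8.70, 8.06 and 8.85 in transformed Het and 7.64, 8.40 and 8.56 in transformed WT cultures, against 7.85 to 8.25 in untransformed cultures, with overlap of the states. Hoxd3 (0.15 ± 0.10, limma adjusted p 0.272) and Hoxd4 followed. Hoxd4 was above background only in transformed Het culture 3 (7.13) and transformed WT culture 1 (7.07), the other cultures lying at 6.12 to 6.57.

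Each genotype was also fitted for transformation by itself. In Het embryos Hoxc8, Hoxc9 and Hoxc10 were called (3 of 34, all lower, where 14.3% of all genes were called and 8.58% were called lower), and in WT embryos Hoxc5, Hoxc8 and Hoxd11 (3 of 34, all lower, where 16.7% were called and 9.08% were called lower). The difference between genotypes was itself tested, and limma called 0 of 34 Hox genes (0% of all genes), with 2 Hox genes at an unadjusted p under 0.05. These were Hoxd11, which changed by -0.05 in Het and -0.55 in WT embryos (difference 0.50 ± 0.12, adjusted p 0.916), and Hoxc5, which changed by -0.19 in Het and -0.75 in WT embryos (0.56 ± 0.23, adjusted p 0.916).

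The polysomal arrays, separate hybridisations of the same cultures, showed the same highest transformed culture for Hoxb6, Hoxb9, Hoxd8, Hoxd9, Hoxd10 and Hoxc10, with an order that differed in part among the rest. These genes were picked. The highest transformed culture was not the same in the 2 fractions for Hoxb2, Hoxb7, Hoxc4, Hoxc5, Hoxc6, Hoxd3 and Hoxd4, among others. Hoxd8 had 3.15, 4.73 and 6.17 in transformed Het and 5.0, 3.48 and 3.48 in transformed WT cultures, against 3.35 to 3.89 in untransformed Het and 3.59 to 3.98 in untransformed WT cultures, so that Het 2, Het 3 and WT 1 were again the high ones. Hoxb6 had 5.13, 4.67 and 3.83 in transformed Het and 6.59, 5.36 and 3.98 in transformed WT cultures, against 4.59 to 5.09 in untransformed cultures. Hoxd10 stood at 5.83 in transformed Het culture 3 and at 2.61 to 3.02 in the other five, against 2.59 to 3.55 in untransformed cultures, so that Het culture 2, next to the highest in total RNA, was under the background limit at 2.73. Hoxb4 also changed order, with Het culture 3 (7.55) above WT culture 3 alone in total RNA and, at 4.09, below WT culture 1 alone in polysomal RNA. The SD ratio in polysomal RNA had a median of 1.23 for Hox genes and 0.93 for all genes, and it exceeded 2 in 11 of 34 Hox genes (32.4%) and in 7.73% of all genes. For Hoxd9 it was 6.62, the largest of the 34 Hox genes. A ratio as large was reached by 0.115% of all genes, a share given for a gene picked as the extreme.

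**Figure D4:**
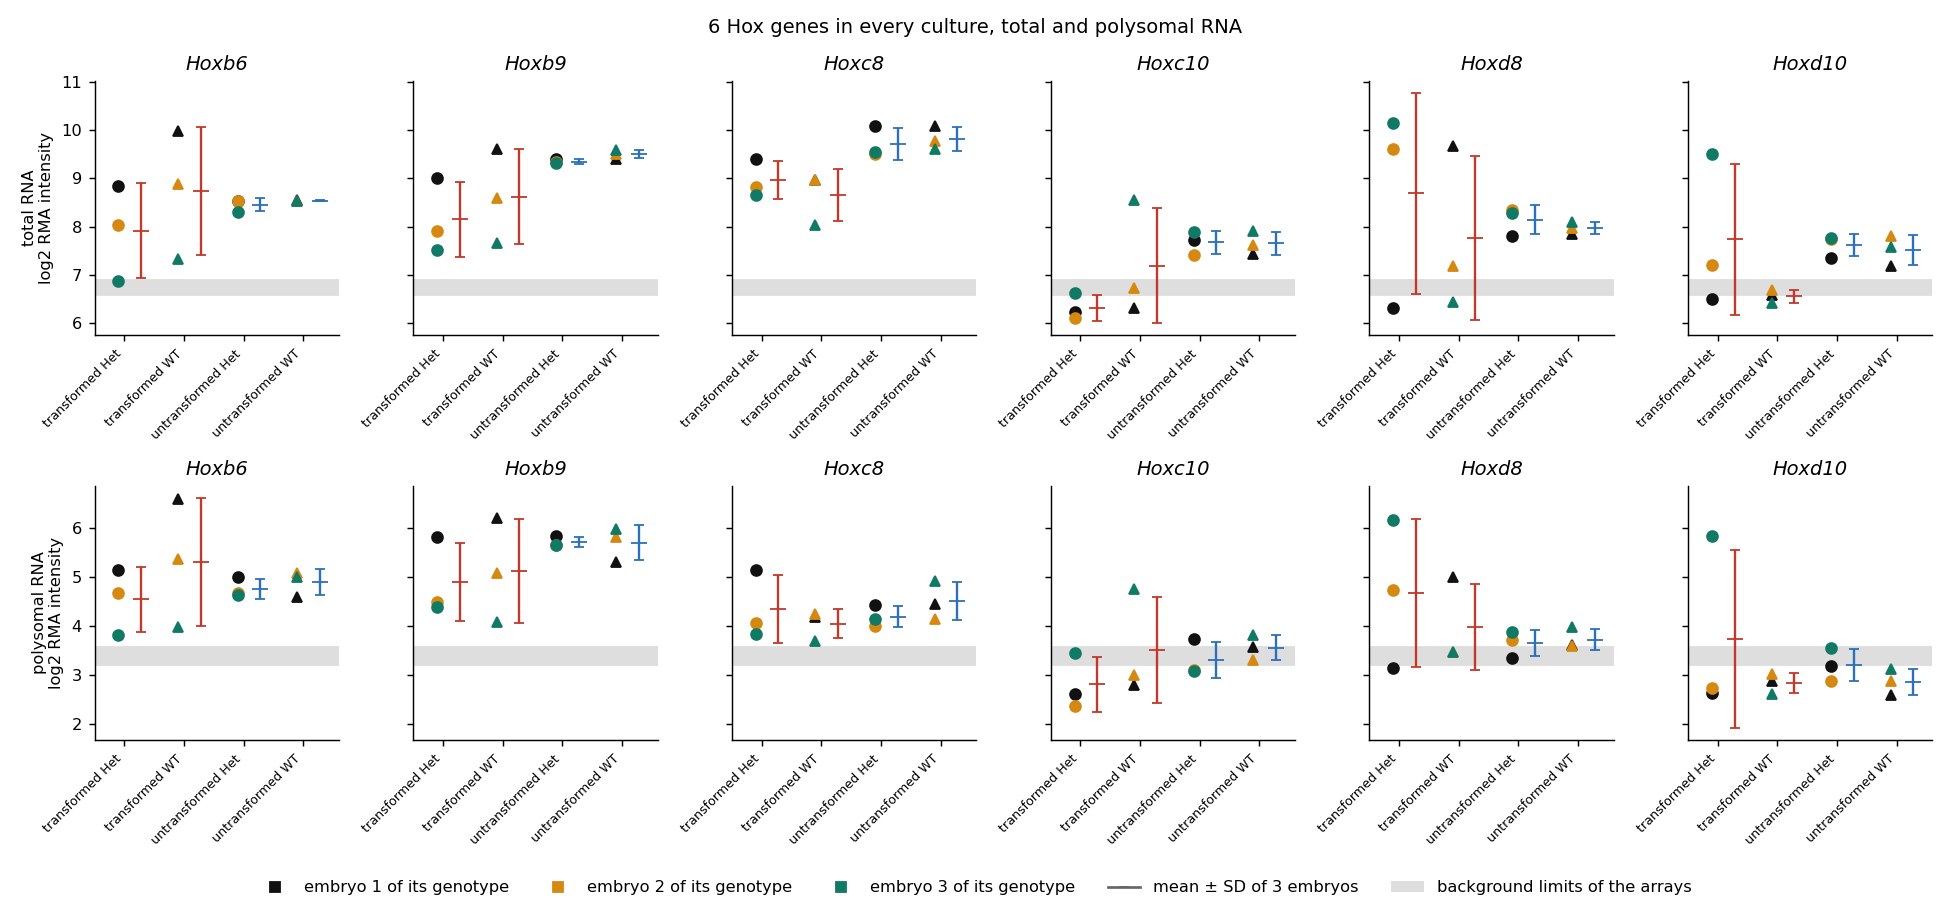
Log2 RMA intensity (vertical axes) of 6 Hox genes in every culture, total RNA in the top row and polysomal RNA in the bottom row, by group from transformed Het to untransformed WT, with circles for Het, triangles for WT and colours for the embryo number within a genotype. Bars are means ± SD of 3 embryos and the grey bands are the arrays' background limits, and Het culture 3 is the highest transformed culture of Hoxd8 and Hoxd10, and WT culture 1 of Hoxb6, in both rows.

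In polysomal RNA, limma called 0 of 34 Hox genes for transformation, where 7.72% of all genes were called, and 3 Hox genes had an unadjusted p under 0.05. These were Hoxd11 (lower, adjusted p 0.0597), Hoxa9 (0.41 ± 0.15, adjusted p 0.144) and Hoxc9 (-0.49 ± 0.19, adjusted p 0.181). Hoxd11 had 2.84 to 3.33 in transformed cultures, all 6 of them not above background, and 3.40 to 3.80 in untransformed cultures, all above it. In WT embryos alone limma called 0 Hox genes (1.28% of all genes; 2 Hox genes at an unadjusted p under 0.05) and in Het embryos alone 0 (1.79% of all genes; 3 Hox genes). Without WT embryo 3, whose transformed polysomal array was among the narrowest, 1 Hox gene (Hoxc9) was called.

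Translational efficiency, the polysomal minus the total log2 value of the same culture, was called higher in 2 of 34 Hox genes after transformation, where 2.78% of all genes were called (1.81% higher and 0.971% lower). Hoxc8 differed by 0.81 ± 0.16 (limma adjusted p 0.0354) and rose in 6 of 6 embryos, by 1.41, 0.73 and 0.58 in the Het embryos and 0.84, 0.91 and 0.36 in the WT embryos. Hoxd10 differed by 0.67 ± 0.14 (limma adjusted p 0.0402), by 0.30, 0.39 and 0.55 in the Het and 0.90, 1.25 and 0.65 in the WT embryos. Its polysomal value was above background on 2 of 12 arrays only, so most of its polysomal values are background readings. For Hoxc8 the total RNA fell by 0.95 while the polysomal values overlapped, at 3.71 to 5.15 in transformed and 4.0 to 4.91 in untransformed cultures, on arrays with the smaller spread of 1.15 to 1.44 (SD over probe sets) against 1.71 to 1.81 in total RNA. Leaving out any embryo but WT embryo 3 removed both calls (0 called), and leaving out WT embryo 3 gave 3, Hoxc10 being added. Hoxc8 and Hoxd10 are among 8 Hox mRNAs described in mouse embryos as depending on the ribosomal protein Rpl38 for translation, and limma called none of the other six for this comparison (Hoxa4, Hoxa5, Hoxa9, Hoxa11, Hoxb3 and Hoxb13). In WT embryos alone limma called 0 Hox genes for translational efficiency (0.701% of all genes; 2 Hox genes at an unadjusted p under 0.05), and in Het embryos alone 0 (0.297% of all genes; 4 Hox genes).

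The loss of 1 Eif4e allele was followed by no called Hox difference. In total RNA of transformed cells limma called 0 of 34 Hox genes between Het and WT, where 0.0472% of all genes were called, with 1 Hox gene at an unadjusted p under 0.05. In total RNA of untransformed cells it called 0 (0% of all genes), with 0 Hox genes at an unadjusted p under 0.05. In polysomal RNA and in translational efficiency, each in both states, it called 0 as well (0% of all genes in each), and of these only untransformed polysomal RNA had a Hox gene at an unadjusted p under 0.05 (Hoxc5, -0.48 ± 0.20). The fit takes one spread for both states, which is too wide for most untransformed and too narrow for most transformed Hox values in total RNA, and fits of each state alone also called 0 in every fraction.

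In transformed cells the genotype differences of the 34 genes lay between -0.87 and 1.18. Hoxd11 had the smallest p, with 6.51, 6.56 and 7.07 in transformed Het against 6.39, 6.34 and 6.37 in transformed WT cultures (difference 0.35 ± 0.14, limma adjusted p 0.489), and although the genotypes did not overlap, all but 1 of these values lay under the background limit. The exact permutation of 3 against 3 gave 0.1 for Hoxd11, the smallest it can give. Hoxa3, an anterior gene of the throat, differed by -0.28 ± 0.13 (limma adjusted p 0.537), with 6.16 to 6.23 in transformed Het and 6.28 to 6.80 in transformed WT cultures, of which WT culture 1 alone was above background, so that the difference is mostly one of background readings. Hoxd10 differed by 1.18 ± 0.57 (limma adjusted p 0.56), with all 3 transformed WT cultures under the background limit, and Hoxc10 by -0.87 ± 0.45 (limma adjusted p 0.577), with all 3 transformed Het cultures under it. Hoxb7 and Hoxc5 differed by -0.40 ± 0.23 and 0.41 ± 0.25.

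In untransformed cells the genotype differences of the 34 genes lay between -0.24 and 0.17. Hoxb13 (-0.17 ± 0.10) and Hoxa13 (0.17 ± 0.11) had the smallest p-values, both with a limma adjusted p of 1.00. Hoxb13 was above background on no total RNA array, so its difference is one of background readings, and Hoxa13 lay close to the limit. Hoxc6, a gene of the anterior thorax, had 9.09, 8.90 and 8.65 in untransformed Het against 9.13, 9.30 and 8.94 in untransformed WT cultures, with overlap (-0.24 ± 0.23). The genes with the widest untransformed spread were Hoxa5, Hoxc8, Hoxd10, Hoxd9 and Hoxd8, with SDs of 0.27 to 0.23 over 6 embryos. Hoxd10 had 7.35, 7.75 and 7.76 in untransformed Het and 7.17, 7.80 and 7.57 in untransformed WT cultures, and the first culture of each genotype was the lowest for Hoxd8, Hoxd9 and Hoxd10.

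**Figure D5:**
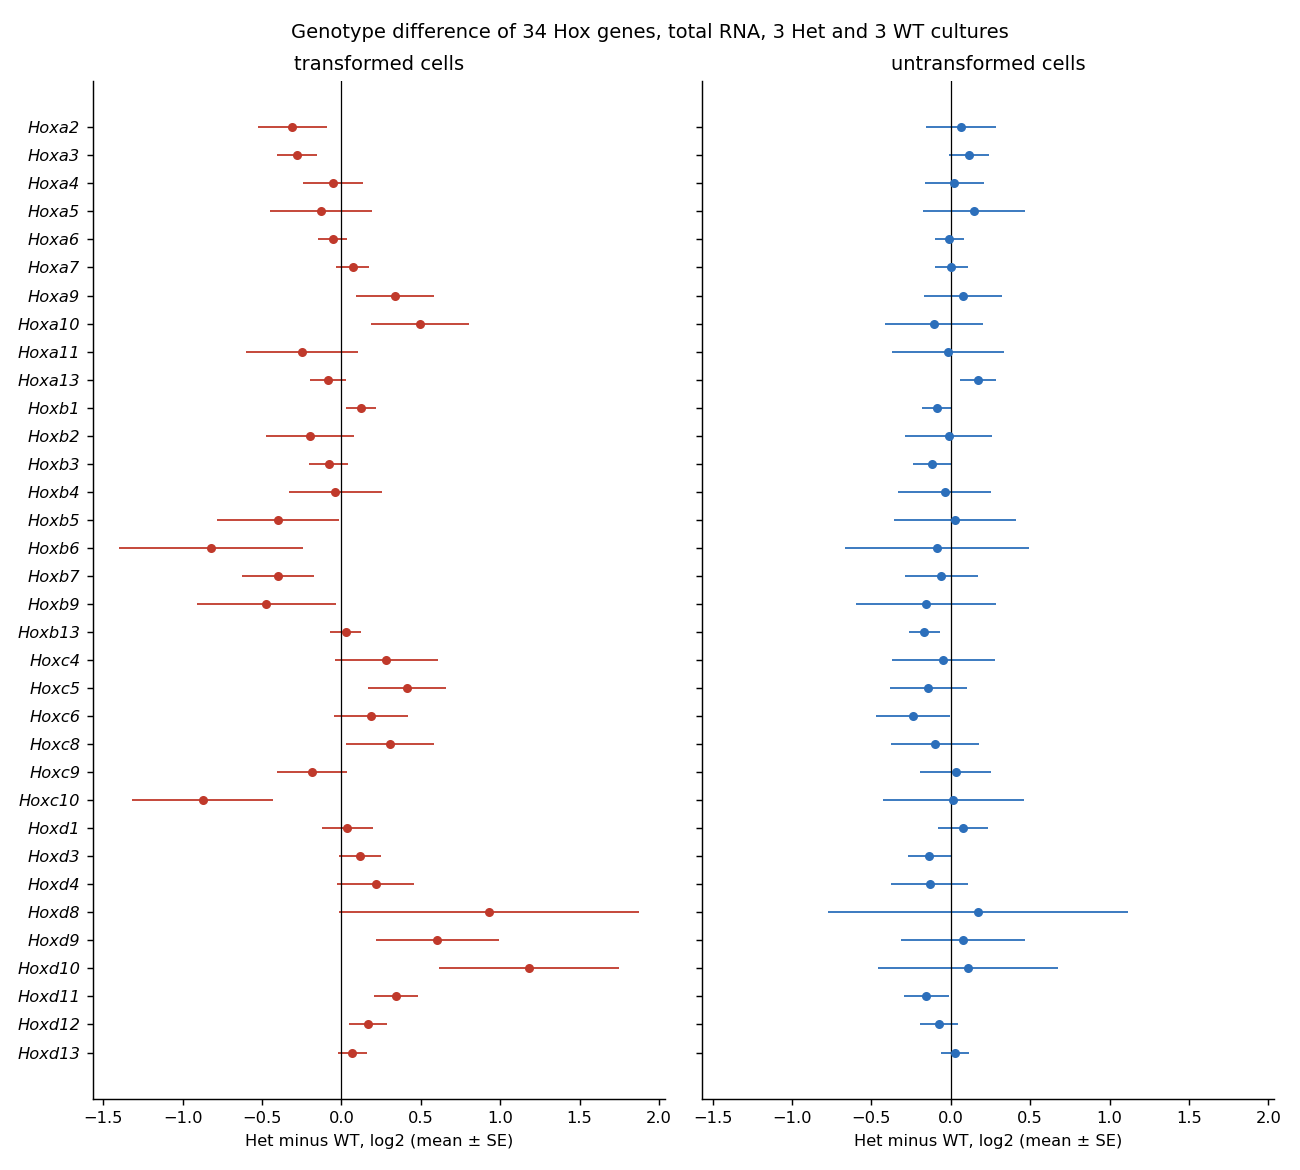
Het minus WT difference in total RNA (horizontal axis, log2, points with ± SE) for 34 Hox genes, transformed cells at the left and untransformed cells at the right, 3 Het and 3 WT cultures each. The points at the right lie between -0.24 and 0.17, those at the left reach 1.18 for Hoxd10 and -0.87 for Hoxc10, and no gene was called in either state.

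Among the partners of Hox proteins, 2 of 8 TALE genes fell on transformation in total RNA and none rose. The counts of these lists stand against 15% of all genes called higher and 15.8% called lower. Meis1, a partner of Hox proteins that also takes part in leukaemia with Hoxa9, had 7.47, 8.69 and 8.11 in transformed Het and 8.33, 8.14 and 8.43 in transformed WT cultures, against 9.32 to 9.48 in all untransformed cultures. Meis3 ranged from 7.48 to 7.99 in transformed and 8.12 to 8.28 in untransformed cultures. Of 29 Polycomb genes, which keep Hox genes silent where they are not used, 3 rose (Jarid2, Pcgf6 and Kdm2b) and 2 fell (Phf19 and Rybp). Both Polycomb counts were below the shares over all genes. Of 13 Trithorax and demethylase genes, which keep Hox genes active, 7 rose and none fell, the 7 being Kmt2a, Kmt2c, Kmt2d, Ash2l, Dpy30, Kdm6a and Psip1. Their median difference was 0.24 log2. Without single embryos the Polycomb calls numbered 3 to 8 (8 without WT embryo 3) and the Trithorax calls 3 to 7 (3 when Het embryo 3 was removed, and 4 when WT embryo 1, WT embryo 2 or else Het embryo 1 was).

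Of 10 genes upstream of Hox expression 3 fell, the retinoic acid enzyme Aldh1a2 (6.16 to 6.77 in transformed and 7.79 to 8.36 in untransformed cultures), the hindbrain factor Egr2 (7.70 to 8.77 and 9.32 to 10.51 in the same order) and the retinoic acid receptor Rara. Of 36 other positional transcription factors 11 fell (Shox2, En1, Alx1, Alx4, Dlx5, Emx2, Meox1, Meox2, Foxf1, Gli3 and Zic1) and 1 rose (Six2), and 7 to 10 were called without single embryos (7 without Het embryo 3). Dlx5, a limb and skull gene, had 6.83 to 7.10 in transformed and 7.63 to 8.05 in untransformed cultures. These shares stand against 15% of all genes called higher and 15.8% called lower.

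Markers of other cell types were also called for transformation, and their counts stand against the 15% of all genes called higher and 15.8% called lower. Of 8 leukocyte markers tested 4 fell and 1 rose, and Lyz2, a macrophage gene, had 5.35 to 6.33 in transformed and 9.32 to 10.50 in untransformed cultures. The macrophage and endothelial markers Lyz2, Ptprc, Kdr and Emcn were above background in no transformed culture, and in 6, 6, 4 and 6 of the 6 untransformed cultures. These 4 were picked from their lists and do not stand for every member, since 1 leukocyte marker rose. Without single embryos, 3 to 5 endothelial markers were called, a count that does not separate higher from lower. Kdr and Emcn by themselves do not show how the other endothelial markers changed. The summed log2 level of the 8 leukocyte markers was 54.3 to 58.1 in transformed and 59.6 to 62.2 in untransformed cultures, and that of 8 endothelial markers 55.1 to 57.9 in transformed and 60.1 to 62.5 in untransformed cultures. Of 17 fibroblast markers 9 fell and none rose, with Thy1 at 7.20 to 9.52 in transformed and 11.54 to 12.22 in untransformed cultures and a summed level of 144.6 to 168.6 in transformed and 172.0 to 176.1 in untransformed cultures. Of 12 neural markers 2 rose (Sox2 and Nefl) and 3 fell (Nes, Tubb3 and Map2), 1 of 8 epithelial markers rose (Krt18, with 0 to 3 epithelial calls without single embryos; 3 without WT embryo 3 and 0 without Het embryo 1 or Het embryo 3), and 1 of 7 skeletal muscle (Des) and 1 of 6 cartilage markers (Col2a1) fell. The epithelial, muscle and cartilage counts are near the shares over all genes. The part of these cell types in the Hox differences was not tested.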

How the data were processed

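Values are log2 intensities made by the authors with RMA, per the submitters' processing notes; version and probe set filter are not given in the sources used here. The labels' protocols name TRIzol, a 10 to 50% sucrose gradient and NuGEN amplification. Of 25668 probe sets, 20777 carried 1 symbol; the 232 with several (1 of them joining Hoxb8 and Hoxb7) and the 4659 with none were not used. limma 3.58.1 in R 4.3.3 was fitted on 14830 genes, with Benjamini-Hochberg adjustment over all of them. Transformation and its difference between genotypes used embryo as a block (4 residual degrees of freedom), since the labels match both states by embryo. The deviations of an embryo's 2 states correlated over all genes at 0.05, 0.22 and 0.21 (Het) and 0.13, 0.06 and -0.06 (WT) in total RNA. Genotype used 4 group means (8 residual degrees of freedom). The fits were tested on simulated data. The members, gene lists, naming rule and tests were chosen with earlier results of these data known. The naming rule takes genes called in any comparison, the 5 of smallest p in each direction for transformation and the 3 for genotype in each state (total RNA), and the 5 of largest SD over untransformed cultures. A limma test of the spread (absolute deviations) was tried after the data were seen; it called Hoxd8 and Hoxb7 and was set aside, because on simulated data it recovered few changes. With 3 arrays a group, their number limits the precision.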

Additional observations from a re-analysis of the deposited data

How the results depend on the processing

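The 6 Hox genes called for transformation in total RNA became 3 when a gene had to exceed the 40th percentile on all arrays of its fraction, where 16 Hox genes were tested, and 3 to 10 without single embryos. In Het embryos 3 became 1 under that filter and 0 to 6 without single embryos, and in WT embryos 3 became 2 to 5. In polysomal RNA 0 became 1 with trend and robust variances, 2 with array weights, 1 with no replicate block and 0 to 1 without single embryos; in Het embryos it became 1 with array weights and 1 without the 2 narrowest polysomal arrays. For translational efficiency 2 became 0 under the stricter filter, 1 with trend and robust variances and 0 to 3 without single embryos; in WT embryos 0 became 1 with array weights and 0 to 1 without single embryos, and in Het embryos 1 with array weights, 1 without the 2 narrowest polysomal arrays and 0 to 1 without single embryos. Causes were not tested beyond the fewer genes or embryos. The 18 genes above background on all total RNA arrays became 8 at the 99th percentile. Without the replicate block total RNA again gave 6 calls, 5 of them shared (Hoxa3 in, Hoxc5 out, adjusted p 0.0572 by limma). The genotype counts of 0 held with embryo as a random block and in every other setting run.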

Other observations

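Hoxd3os1, a noncoding RNA listed with the Hoxd cluster, had 6.55, 7.19 and 7.75 in transformed Het and 7.69, 6.51 and 6.54 in transformed WT cultures, against 6.75 to 7.06 in untransformed Het and 6.71 to 6.91 in untransformed WT cultures. Het culture 3 and WT culture 1 were highest, and the lowest were Het 1, WT 2 and WT 3, in which Hoxd8 was also low. The Hoxd3os1 values of Het 1, WT 2 and WT 3 lay under the background limits of their arrays (6.82, 6.69 and 6.66). They are therefore background readings. Of 5 noncoding genes of the clusters that were tested, limma called 0 for transformation in total RNA, and Hoxaas2 alone had an unadjusted p under 0.05 (difference -0.22, adjusted p 0.108). Whether the probe set separates Hoxd3os1 from transcripts of the other strand was not checked.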
